A study of Homo sapiens with 6 samples.

Results

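The 10 genes described here make, destroy, export or sense sphingosine 1-phosphate (S1P). They are the 5 S1P receptors S1PR1 to S1PR5, the sphingosine kinases SPHK1 and SPHK2, the S1P lyase SGPL1, the S1P phosphatase SGPP1 and the S1P exporter SPNS2. They were taken by gene symbol from a table of 57773 genes, and all 10 were found. The set was chosen on these data, because S1PR5 was far higher after TGFβ, so the values of S1PR5 are given as a description without a test. The study compared HepG2 cells, a human hepatocellular carcinoma line, treated for 3 h with recombinant human TGFβ1 at 5 ng/mL (3 cultures) or with the same volume of vehicle (3 cultures). Cells of both groups were below passage 20, had been grown as a monolayer in MEM with serum, and were treated in medium without serum. Poly(A) RNA was sequenced, and the comparison asks which genes respond to TGFβ in these cells. HepG2 is 1 tumor line, so the 6 cultures are not separate donors.

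S1P is a lipid messenger made when a sphingosine kinase phosphorylates sphingosine, the backbone released from ceramide. It can be exported and act on G protein-coupled receptors of the same or another cell, or be removed inside the cell by dephosphorylation back to sphingosine or by irreversible cleavage. In the body S1P is best known for guiding the exit of lymphocytes from lymphoid organs and for holding blood vessel walls together, and liver cells secrete apolipoprotein M, the plasma protein that carries S1P on high-density lipoprotein.

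The libraries held 60815385 to 100099136 reads on genes. A count of 3 reads, the upper limit that a count of 0 allows, equals 0.031 to 0.0487 CPM depending on the culture, for counting error only. CPM are read counts scaled to a common library size with TMM and serve to compare 1 gene between cultures. RPKM are the deposited values, scaled by both gene length and library total, and serve to compare genes with each other. All 3 TGFβ target genes used to check the treatment, PMEPA1, SKIL and SMAD7, rose, with log2 fold changes of 4.30, 2.45 and 1.72. The 8 hepatocyte markers summed to 37000 to 41400 CPM with vehicle and 35500 to 40300 CPM with TGFβ, and 0 of them were called without the block described below.

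Promoters are shown for S1PR5 and the 2 other members called higher below, S1PR2 and SPHK1, so that the letters around their start sites can be read beside the values. They are RefSeq sequences of GRCh38.p14, each running 5′ to 3′ on the gene's strand from 250 bases before a start site to 50 bases after it. Capitals mark the SMAD core motif CAGAC, which reads GTCTG on the other strand, and the AP-1 motif TGANTCA, searched on both strands. SMAD proteins carry the TGFβ signal to the genome, and AP-1 factors often bind beside them.
S1PR5 start 1 (chr19:10517916-10518215, minus strand): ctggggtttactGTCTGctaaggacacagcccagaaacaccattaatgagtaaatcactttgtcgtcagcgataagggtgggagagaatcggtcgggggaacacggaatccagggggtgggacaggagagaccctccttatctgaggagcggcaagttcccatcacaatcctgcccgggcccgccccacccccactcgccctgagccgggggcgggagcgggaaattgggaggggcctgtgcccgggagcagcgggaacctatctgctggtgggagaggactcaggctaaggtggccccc
S1PR5 start 2 (chr19:10517398-10517697, minus strand): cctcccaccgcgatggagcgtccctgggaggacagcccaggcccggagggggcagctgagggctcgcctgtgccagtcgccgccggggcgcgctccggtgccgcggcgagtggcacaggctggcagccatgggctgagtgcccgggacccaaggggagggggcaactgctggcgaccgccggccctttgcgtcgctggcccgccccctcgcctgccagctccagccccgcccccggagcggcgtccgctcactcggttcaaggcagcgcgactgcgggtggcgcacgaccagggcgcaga
S1PR2 (chr19:10231282-10231581, minus strand): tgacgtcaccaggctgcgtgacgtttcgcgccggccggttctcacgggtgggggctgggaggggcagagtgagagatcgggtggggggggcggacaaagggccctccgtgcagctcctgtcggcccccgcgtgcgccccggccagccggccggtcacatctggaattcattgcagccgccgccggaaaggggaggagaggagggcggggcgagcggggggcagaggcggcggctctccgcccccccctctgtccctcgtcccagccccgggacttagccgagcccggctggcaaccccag
SPHK1 start 1 (chr17:76382954-76383253, plus strand): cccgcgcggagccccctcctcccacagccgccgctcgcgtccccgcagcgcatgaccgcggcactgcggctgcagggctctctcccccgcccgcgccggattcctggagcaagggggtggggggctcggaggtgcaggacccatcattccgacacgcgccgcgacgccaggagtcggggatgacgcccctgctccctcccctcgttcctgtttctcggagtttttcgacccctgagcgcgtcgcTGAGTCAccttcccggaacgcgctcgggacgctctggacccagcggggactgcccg
SPHK1 start 3 (chr17:76385028-76385327, plus strand): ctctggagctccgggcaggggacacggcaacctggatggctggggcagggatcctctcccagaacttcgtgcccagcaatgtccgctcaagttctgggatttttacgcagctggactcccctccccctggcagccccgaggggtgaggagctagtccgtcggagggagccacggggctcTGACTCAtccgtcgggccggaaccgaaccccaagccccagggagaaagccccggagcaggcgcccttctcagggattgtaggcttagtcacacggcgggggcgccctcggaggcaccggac

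S1PR5 start 1 held 1 SMAD core motif, at position -238 from the start site, and start 2 held neither motif. The S1PR2 window held neither motif. SPHK1 held an AP-1 motif at -6 from start 1 and another at -71 from start 3, and its start 2, which is not printed, held a SMAD core motif at -199. Among all 35116 RefSeq promoters of this length, 45.3% held the SMAD core motif and 7.71% the AP-1 motif, so a SMAD core match is common by its letters alone. Of the 10 members, 8 were matched to 13 promoters. Among the members with no printed window, SGPL1 held SMAD core motifs at -136 and -78, and SPHK2 at -232 and 38 from its start 2. The S1PR1 and S1PR4 windows, S1PR3 starts 1 and 2, and SPHK2 start 1 held neither motif. Which of these start sites the cells used was not measured.

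S1PR5 (ENSG00000180739), a receptor known from natural killer cells and oligodendrocytes, was close to undetected with vehicle and was read in all 3 cultures with TGFβ. Its row lies at chr19:10623623-10628607 on the minus strand in hg19. The vehicle cultures 1, 2 and 3 held 2, 7 and 0 reads, and the TGFβ cultures 79, 51 and 112 reads. In CPM these were 0.0227, 0.0845 and 0 with vehicle and 0.815, 0.634 and 1.54 with TGFβ. The groups did not overlap, and vehicle cultures 1 and 3 lay below the level of 3 reads.

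The mean of S1PR5 was 0.0357 ± 0.0437 CPM (SD, n = 3) with vehicle and 0.995 ± 0.477 CPM (SD, n = 3) with TGFβ. The fitted log2 fold change was 4.64 (SE 0.63), or 24.9-fold. Vehicle culture 2 held 7 of the 9 vehicle reads, and without it the log2 fold change was 6.06, while the other 5 cultures left out in turn gave 4.18 to 4.87. TGFβ culture 3 alone held 112 of the 242 reads of its group. As the RNA comes from bulk cultures, more cells with the transcript and more transcript per cell cannot be told apart.

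S1PR2 (ENSG00000267534), a receptor that couples strongly to G12 and G13, was the most abundant S1P receptor in both groups and rose with TGFβ. Its row lies at chr19:10334520-10341948 on the minus strand. The vehicle cultures gave 71, 60 and 66 reads and the TGFβ cultures 176, 170 and 133. The levels were 0.804, 0.724 and 1.07 CPM with vehicle and 1.82, 2.11 and 1.82 CPM with TGFβ, so every TGFβ culture lay above every vehicle culture. The mean went from 0.867 ± 0.182 to 1.92 ± 0.169 CPM (SD, n = 3 each). The log2 fold change was 1.15 (SE 0.21), or 2.23-fold, with an FDR of 0.0125 in edgeR, the p of its quasi-likelihood test adjusted by Benjamini and Hochberg's method over all 22747 genes tested.

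The rise of S1PR2 missed the FDR threshold of 0.05 when vehicle culture 1 (FDR 0.0535), vehicle culture 2 (FDR 0.0772) or TGFβ culture 2 (FDR 0.0665) was left out of the edgeR fit, with log2 fold changes between 1.03 and 1.33 over all 6 such fits. With all 6 cultures the rise passed in edgeR with the replicate number as a block (FDR 0.00213), in DESeq2 (FDR 5.9e-05) and in limma-voom (FDR 0.0121). When cultures with the same number were compared, the log2 ratios were 1.18, 1.54 and 0.77, all positive.

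A separate row of the table, CTD-2369P2.2 (ENSG00000175898, chr19:10332111-10333870), lies 649 bases beyond the S1PR2 row. All 1760 bases of it are exon and UTR of S1PR2 in the newer GENCODE v44 annotation on GRCh37, where the gene spans chr19:10332109-10342007. Its counts were 76, 133 and 81 with vehicle and 252, 338 and 257 with TGFβ. It too rose, from 1.26 ± 0.375 to 3.44 ± 0.803 CPM (SD, n = 3 each), with a log2 fold change of 1.45 (SE 0.26, FDR 0.0121). Per length the pair of rows stood at like levels, 0.609 and 0.594 RPKM with vehicle and 1.32 and 1.58 RPKM with TGFβ for S1PR2 and CTD-2369P2.2.

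Summing the rows, which was chosen after the data were seen, took the counts to 147, 193 and 147 for vehicle and 428, 508 and 390 for TGFβ. The sum rose from 2.13 ± 0.401 to 5.36 ± 0.948 CPM (SD, n = 3 each), a log2 fold change of 1.34 (SE 0.20) or 2.52-fold (edgeR FDR 0.00404). The row CTD-2369P2.2 held between 51.7% and 68.9% of these reads. The row of DNMT1, the maintenance DNA methyltransferase, spans the S1PR2 row and the CTD-2369P2.2 row. DNMT1 was read far more, at 195 ± 8.67 CPM with vehicle and 204 ± 4.28 CPM with TGFβ (SD, n = 3 each), with a log2 fold change of 0.07 (FDR 0.78). How reads on overlapping genes were assigned is not given in the sources used here.

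**Figure D1:**
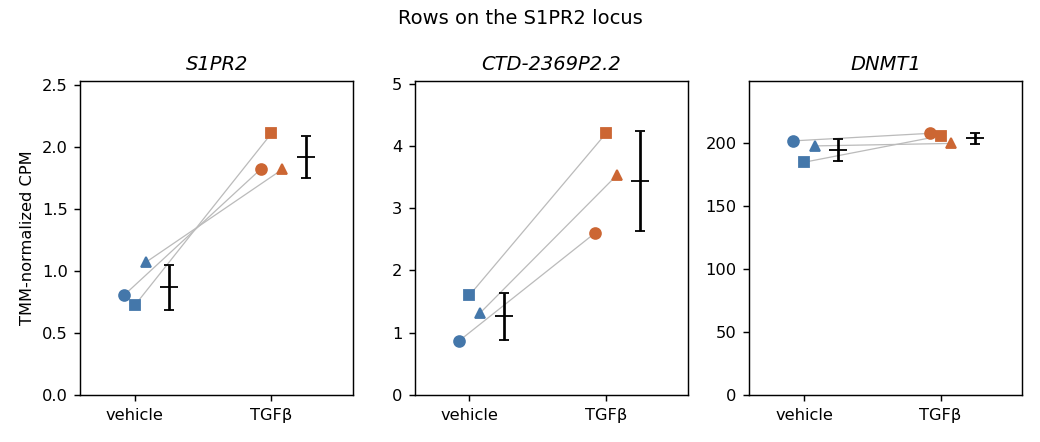
TMM-normalized CPM (vertical axes, each from 0, with a different range) of the S1PR2 row, the CTD-2369P2.2 row that newer annotation places in the S1PR2 transcript, and the overlapping gene DNMT1, in vehicle (blue) and TGFβ (orange) cultures. Circles, squares and triangles are cultures 1, 2 and 3, grey lines join cultures with the same number, and black bars give the mean ± SD (n = 3). S1PR2 and CTD-2369P2.2 do not overlap between the groups, whereas DNMT1 does.

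S1PR3, a receptor that couples to Gi, Gq and G12/13, was read at a low level in all 6 cultures. Its row (ENSG00000213694, chr9:91606362-91619925, plus strand) gave 20, 28 and 15 reads under vehicle against 49, 30 and 22 under TGFβ. The groups overlapped, since TGFβ culture 3 lay below vehicle culture 2 at 0.302 against 0.338 CPM. The log2 fold change of 0.55 (SE 0.31) did not pass (FDR 0.531). Of the overlapping row C9orf47, 95.7% lies in S1PR3 exons of the newer annotation. Of these 5052 exon bases, 228 are UTR and 0 are coding sequence. How reads shared with the S1PR3 row were assigned is not given. C9orf47 held 0 reads in all 3 vehicle cultures against 6, 1 and 6 in the TGFβ cultures. Taking the limit of 3 reads for the vehicle cultures together and the TGFβ reads as counted, the ratio is 4.03. This leaves out the counting error of the TGFβ reads and the spread between cultures, so it is not a lower limit. The row had too few reads to be tested.

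S1PR1 and S1PR4, which are best known from blood vessel lining and white blood cells, had too few reads for the filter on low counts and were not tested. S1PR1 (ENSG00000170989, chr1:101702444-101707074, plus strand) had 4 reads in vehicle culture 1 and 0 in the other 5 cultures. S1PR4 (ENSG00000125910, chr19:3172344-3180329, plus strand) gave 0, 10 and 12 reads under vehicle against 1, 5 and 8 under TGFβ. The ratio of the summed S1PR4 counts, TGFβ over vehicle, was 0.592, with a 95% interval of 0.28 to 1.21 that covers counting error only. At this depth a fall or a small change of S1PR1 or S1PR4 could not be detected. A rise as large as that of S1PR5 was not seen in either.

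Added up per length, the 5 receptors stood at 0.600, 0.645 and 0.862 RPKM with vehicle and 1.56, 1.76 and 1.74 RPKM with TGFβ. The group means were 0.702 ± 0.14 and 1.69 ± 0.109 RPKM (SD, n = 3 each). Most of the added RPKM were S1PR2, which went from 0.609 ± 0.119 to 1.32 ± 0.154 RPKM, against 0.0116 ± 0.0143 to 0.305 ± 0.135 RPKM for S1PR5. S1PR5 made up 1.19%, 4.28% and 0% of the receptor RPKM in the vehicle cultures and 16.3%, 11.5% and 26.3% in the TGFβ cultures. The share of S1PR2 was 87 ± 6.03% with vehicle and 78.1 ± 8% with TGFβ (SD, n = 3 each), with overlap between the groups. These shares include S1PR5, which chose the set, and are a description.

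**Figure D2:**
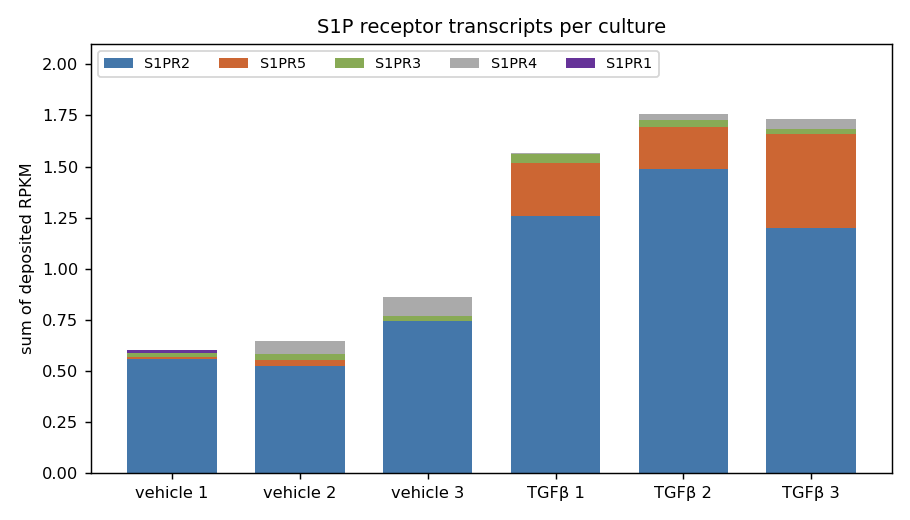
Sum of the deposited RPKM of the 5 S1P receptors (vertical axis, from 0) in each of the 6 cultures, stacked by receptor. S1PR2 is the largest segment in every culture, and the S1PR5 segment is 0 to 4.28% of a vehicle bar and 11.5 to 26.3% of a TGFβ bar.

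Of the 9 members other than S1PR5, 7 passed the filter on low counts, and 2 of these were called higher at an FDR under 0.05 and 0 lower. Over all genes tested, 3.11% were called higher and 1.01% lower. The cultures carry numbers that pair them across the groups, and in the edgeR fit with the number as a block 3 of the 7 were higher and 0 lower, where 8.08% of all genes were higher and 3.75% lower. The median log2 fold change of the 7 was 0.19, with 5 of 7 above 0, and that of all genes tested was -0.01. The number is small, and the 2 members called were S1PR2 and SPHK1.

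SPHK1 (ENSG00000176170, chr17:74372665-74383941, plus strand), the kinase that makes S1P near the plasma membrane, was the most abundant member per length and rose with TGFβ. Its counts were 11670, 9377 and 7006 with vehicle and 15483, 12406 and 10615 with TGFβ. The levels were 132, 113 and 114 CPM with vehicle and 160, 154 and 146 CPM with TGFβ, without overlap. The mean went from 120 ± 10.8 to 153 ± 7.13 CPM (SD, n = 3 each), a log2 fold change of 0.36 (SE 0.08) or 1.28-fold (edgeR FDR 0.0432). The log2 ratios of same-numbered cultures were 0.27, 0.45 and 0.36.

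The call of SPHK1 lies close to the threshold. It was lost in edgeR without vehicle culture 2 (FDR 0.198), vehicle culture 3 (FDR 0.212), TGFβ culture 1 (FDR 0.157) or TGFβ culture 2 (FDR 0.149), and with libraries scaled to their total counts (FDR 0.051), with log2 fold changes of 0.31 to 0.34 in these 5 fits. It passed with the replicate block (FDR 0.000742) and in DESeq2 (FDR 0.00765). PRPSAP1, a gene that overlaps SPHK1, had a log2 fold change of 0.06 (FDR 0.852).

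SPHK2 (ENSG00000063176, chr19:49122548-49133974, plus strand), the kinase found largely in the nucleus and mitochondria, had levels of 17.1, 15.1 and 16.1 CPM with vehicle and 15, 13.7 and 14.4 CPM with TGFβ. The TGFβ cultures lay just below the vehicle cultures, but the log2 fold change of -0.16 (SE 0.09) did not pass (FDR 0.533). The rows RPL18, AC022154.7 and DBP, which overlap SPHK2, had log2 fold changes of 0.01, -0.19 and -0.32, and 0 of them were called. The ratio of SPHK1 to SPHK2 in RPKM was 10.5, 10.2 and 9.64 with vehicle and 14.5, 15.3 and 13.8 with TGFβ. The log2 ratio was 0.52 higher with TGFβ, without overlap (P = 0.1, exact two-sided permutation test over 3 against 3 cultures, the smallest P that this design allows). Of 4 such ratios computed, the other 3, SPHK1 to SGPL1, SPHK1 to SGPP1 and SGPL1 to SGPP1, differed by 0.17, 0.18 and 0.01 on the log2 scale, and their groups overlapped (exact permutation P = 0.2, 0.3 and 0.7).

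SGPL1 (ENSG00000166224, chr10:72575717-72640930, plus strand), the lyase that cleaves S1P for good, had 107, 111 and 95.2 CPM with vehicle and 114, 129 and 114 CPM with TGFβ. Every TGFβ culture lay above every vehicle culture, and the means were 104 ± 8.01 and 119 ± 8.53 CPM (SD, n = 3 each). In deposited RPKM the groups overlapped, with 15 in vehicle culture 2 and 14.1 in TGFβ culture 3. The log2 fold change of 0.19 (SE 0.08), or 1.14-fold, missed the threshold (edgeR FDR 0.357) and passed it with the replicate number as a block (FDR 0.0349). SGPP1 (ENSG00000126821, chr14:64150932-64194757, minus strand), the phosphatase that returns S1P to sphingosine in the endoplasmic reticulum, had 17.9, 17.8 and 13.4 CPM with vehicle and 19.1, 20.4 and 15.9 CPM with TGFβ. Its groups overlapped, and its log2 fold change of 0.17 (SE 0.14) did not pass (FDR 0.706).

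SPNS2 (ENSG00000183018, chr17:4402133-4442330, plus strand), the transporter that releases S1P from cells such as endothelium, had 2.47, 1.70 and 1.43 CPM with vehicle and 2.40, 1.54 and 1.18 CPM with TGFβ. Cultures with the same number lay closer together than cultures of 1 group. The log2 fold change was -0.13 (SE 0.29, FDR 0.914), and its sign turned to 0.12 without vehicle culture 1 and to 0.07 without TGFβ culture 3. MYBBP1A, which overlaps the end of SPNS2, had a log2 fold change of -0.19 (FDR 0.335, and 0.0328 with the replicate block).

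Per length, each of the 4 enzymes stood above each of the receptors in both groups, SPHK2 and S1PR2 being the closest pair with TGFβ, at 1.93 ± 0.0927 and 1.32 ± 0.154 RPKM (SD, n = 3 each). With vehicle the order of mean RPKM was SPHK1 (22.4 ± 1.8), SGPL1 (13.8 ± 1.31), SGPP1 (4.09 ± 0.696), SPHK2 (2.22 ± 0.1), S1PR2 (0.609 ± 0.119) and SPNS2 (0.375 ± 0.105; SD, n = 3), with no overlap between neighbours. Below them S1PR4, S1PR3, S1PR5 and S1PR1 lay between 0.0515 and 0.00402 RPKM, and each overlapped the next. With TGFβ the first 6 kept this order, from 28 ± 2.1 RPKM for SPHK1 to 0.336 ± 0.128 RPKM for SPNS2. S1PR5 followed at 0.305 ± 0.135 RPKM, overlapping SPNS2 and above S1PR3 at 0.0363 ± 0.0101 RPKM.

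**Figure D3:**
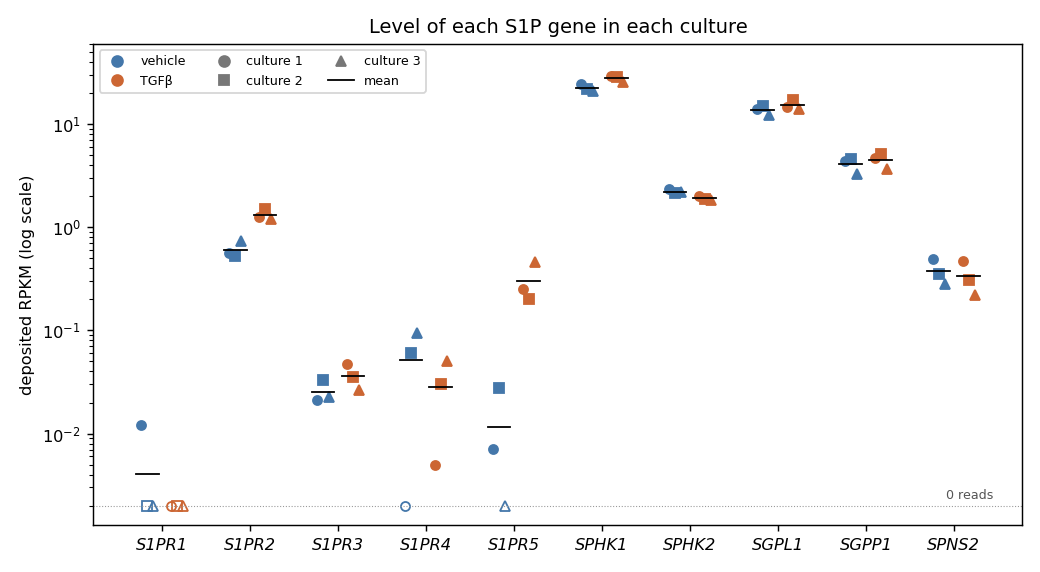
Deposited RPKM (vertical axis, log scale) of the 10 S1P genes in each vehicle (blue) and TGFβ (orange) culture, with circles, squares and triangles for cultures 1, 2 and 3 and a black line at the group mean. Open symbols on the dotted line are cultures with 0 reads, which a log axis cannot hold. S1PR2, S1PR5 and SPHK1 show TGFβ cultures above all vehicle cultures, while S1PR3, S1PR4, SGPL1, SGPP1 and SPNS2 overlap on this scale.

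Around the members, 62 other genes of sphingolipid metabolism and of S1P and lysophosphatidic acid signaling were listed by role, and 54 passed the filter. Of the 54, 4 rose and 2 fell at an FDR under 0.05, against the shares of 3.11% and 1.01% over all genes given above. With the replicate block 10 of the 54 rose and 3 fell, where 8.08% of all genes were higher and 3.75% lower. Without vehicle culture 1, 2 or 3 the fit without the block called 5, 2 and 1 higher and 1, 0 and 0 lower, and without TGFβ culture 1, 2 or 3 it called 2, 1 and 4 higher and 1 lower each time. The median log2 fold change of the 54 was 0.06, over a range from -0.75 to 0.66, and 34 were above 0. The 8 not tested were CERS3, DEGS2, ACER1, UGT8, PPAP2C, LPAR1, LPAR3 and LPAR4.

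Serine palmitoyltransferase carries out the committed step of sphingolipid synthesis, and its subunit SPTLC3 fell. SPTLC3 had 43, 44.8 and 43.6 CPM with vehicle and 32.7, 20.2 and 25.1 CPM with TGFβ, a log2 fold change of -0.75 (SE 0.15, FDR 0.0183). The other subunits SPTLC1 and SPTLC2 had log2 fold changes of 0.03 and 0.12 and were not called. In all, 1 of 15 tested genes of de novo synthesis fell and 0 rose. With the block CERS4, a ceramide synthase (0.47, SE 0.05, FDR 0.000152, and 0.0509 without the block), and DEGS1, the desaturase that completes ceramide (0.21, SE 0.06, FDR 0.0321, and 0.178 without it), also rose, and the ceramide synthase CERS6 fell (-0.24, SE 0.05, FDR 0.0113, and 0.17 without it).

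Among 9 genes that turn ceramide into sphingomyelin or ceramide phosphate or back, 2 rose and 0 fell. SGMS1, the sphingomyelin synthase of the Golgi, had 24.2, 21 and 22.2 CPM with vehicle and 34.6, 35 and 30.6 CPM with TGFβ (log2 fold change 0.57, SE 0.09, FDR 0.0056). CERK, which phosphorylates ceramide, went from 81.4 ± 4.87 to 102 ± 3.15 CPM (SD, n = 3 each; edgeR log2 fold change 0.33, SE 0.07, FDR 0.0337). Neither gene overlapped between the groups. None of 4 tested ceramidases and none of 6 tested glycosphingolipid genes passed with or without the block, with log2 fold changes from -0.21 to 0.34.

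Of 4 tested genes of S1P breakdown other than SGPL1 and SGPP1, 0 passed, and with the block PPAP2B, a lipid phosphatase of the cell surface, rose (0.25, SE 0.05, FDR 0.00621, and 0.307 without it). Among 5 carriers and exporters the transporter ABCG2 fell from 12.6 ± 0.223 to 9.42 ± 0.469 CPM (SD, n = 3 each; edgeR log2 fold change -0.42, SE 0.10, FDR 0.0454). ABCC1, which also exports S1P, rose with the block (0.32, SE 0.06, FDR 0.00301, and 0.256 without it), and APOM, the carrier named above, was not called at -0.16.

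Of the 7 G protein subunits through which the receptors signal, GNA13, the α subunit of G13, rose from 97.6 ± 4.86 to 130 ± 7.21 CPM (SD, n = 3 each; edgeR log2 fold change 0.41, SE 0.07, FDR 0.012). Its cultures stood at 103, 95.8 and 93.9 CPM with vehicle and 131, 137 and 122 CPM with TGFβ, without overlap. With the block GNAI2 (0.36, SE 0.06, FDR 0.00264) and GNA12 (0.20, SE 0.05, FDR 0.0337) rose as well, at FDR 0.173 and 0.219 without it. Among the related receptors for lysophosphatidic acid, LPAR6 rose from 18.8 ± 4.14 to 29.6 ± 3.88 CPM (SD, n = 3 each; edgeR log2 fold change 0.66, SE 0.16, FDR 0.0494), the only one of 4 tested genes of its list to pass.

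**Figure D4:**
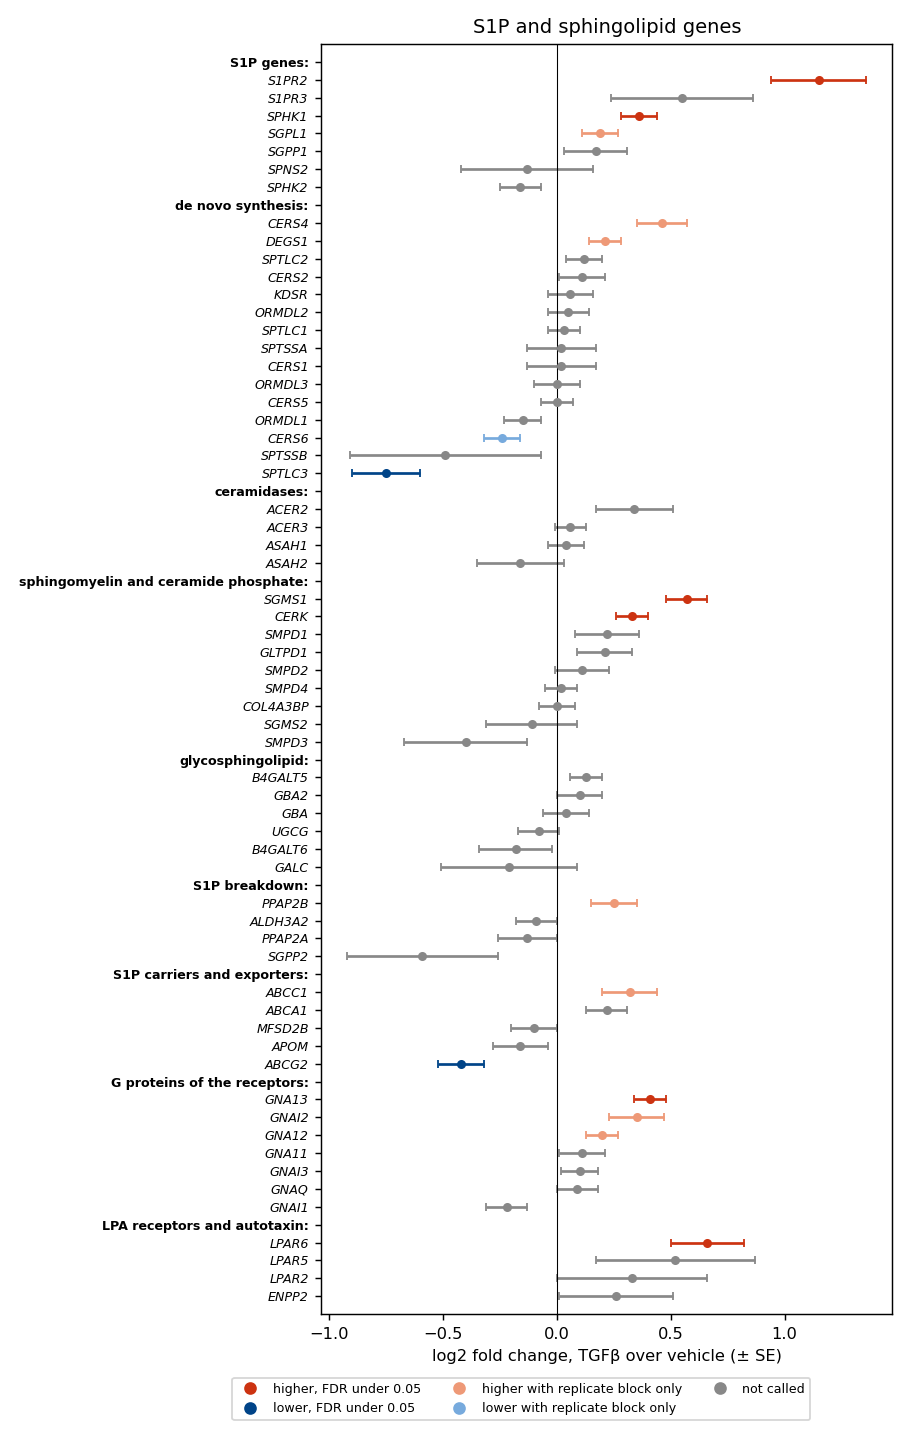
Log2 fold change, TGFβ over vehicle (horizontal axis), with its standard error as a bar, for the tested S1P genes other than S1PR5 and the 54 tested pathway genes, grouped by role. Red and dark blue points passed an FDR of 0.05 in the edgeR fit, pale points passed in the fit with the replicate block, and grey points passed in neither. S1PR2 at 1.15 stands farthest right and SPTLC3 at -0.75 farthest left.

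S1PR5, S1PR2 and S1PR4 lie on the same arm of chromosome 19, and S1PR4 gave 22 reads with vehicle and 14 with TGFβ. The genes beside S1PR5 were examined, in a window that reaches neither S1PR2 nor S1PR4. Within 100000 bases of S1PR5 the table holds 12 other rows, of which 10 were tested, 1 was called higher and 0 lower. In the fit with the replicate block 5 of the 10 were higher and 0 lower, beside the 8.08% and 3.75% of all genes given above. CDKN2D, an inhibitor of cyclin-dependent kinases 48531 bases away, went from 4.13 ± 0.296 to 6.22 ± 0.696 CPM (SD, n = 3 each; edgeR log2 fold change 0.59, SE 0.14, FDR 0.0452). The nearest gene, KEAP1, at 9206 bases, had a log2 fold change of 0.18 (FDR 0.266, and 0.0427 with the block), and ATG4D, at 25964 bases, one of 0.36 (FDR 0.0734, and 0.0094 with the block). PDE4A and AP1M2 passed with the block alone (FDR 0.0228 and 0.0446), with blocked log2 fold changes of 0.32 and 0.21. The 10 tested rows spanned log2 fold changes of -0.13 to 0.81. The 4.64 of S1PR5 lies above them, but S1PR5 was chosen for its rise, so no conclusion is drawn from this order.

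The genes whose log2 CPM followed S1PR5 most closely over the 6 cultures were RP11-431K24.1 (Pearson's r of 0.992), JAKMIP3 (0.990), UCN2 (0.984), DND1P1 (0.984) and A4GALT (0.984). The cultures fall into the treatment groups, so these values are set largely by the difference between vehicle and TGFβ and are given as a description over 6 points. All 5 genes were low, with group means of 0.212 to 0.906 CPM. A4GALT, which makes the glycosphingolipid globotriaosylceramide and was in no list, went from 0.429 ± 0.077 to 0.906 ± 0.0361 CPM (SD, n = 3 each). All 5 genes were picked through S1PR5, so no test is given for them.

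Markers of other cell types in which S1P receptors are known summed to far fewer CPM than the hepatocyte markers. Single markers among them still reached the level of S1PR2 per length. The 5 of 6 endothelial markers found in the table summed to 0.488 to 0.7 CPM with vehicle and 0.453 to 0.758 CPM with TGFβ, with KDR at 0 in every culture. The 7 leukocyte and natural killer cell markers summed to 3.55 to 4.74 CPM with vehicle and 4.75 to 5.88 CPM with TGFβ, mostly PRF1, with CD3E at 0 in every culture and PTPRC at 1 read in all. The 4 oligodendrocyte markers summed to 11.6 to 13.3 and 12.9 to 14.9 CPM, mostly MBP. The 5 fibroblast markers summed to 13.6 to 15 CPM with vehicle and 23.2 to 34.6 CPM with TGFβ, mostly COL1A1 and PDGFRB. Only these 2 could be tested, and 0 were called without the block and 2 higher with it, where 8.08% of all genes were higher. COL1A2, DCN and LUM had 10, 16 and 2 reads over the vehicle cultures and 11, 13 and 0 over the TGFβ cultures. Of 4 red cell and platelet markers 3 were at 0 in every culture. The part of these levels in the values of the S1P genes was not tested.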

How the data were processed

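RNA from 3 vehicle and 3 TGFβ cultures of HepG2 cells was sequenced as paired reads. Per the labels and the methods, the authors used bcl2fastq, TopHat2 2.0.6, HTSeq and MAPRseq with hg19. They deposited 1 table with the raw count of reads per gene and, beside it, RPKM. The sources used here do not give the annotation release, strand setting or overlap rule. Groups and replicate numbers came from the labels, and the methods call the cultures biological replicates.

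Counts were tested with edgeR 4.0.16 (limma 3.58.1, R 4.3.3), using TMM, filterByExpr and the robust quasi-likelihood F test, with Benjamini-Hochberg adjustment over 22747 genes. Genes were called at an FDR under 0.05. In simulated counts with dispersions specific to each gene, unchanged genes made up more of the calls than the nominal FDR, and with dispersions on the trend they did not. Correlations with S1PR5 used log2 CPM with a prior count of 2.

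Deviations from the group means correlated across genes at 0.366, 0.227 and 0.316 for cultures with the same number and at most 0.0101 for others, which was taken as pairing by number. Partners 1 and partners 2 shared a sequencing lane by the labels, partners 3 did not. The alternatives were the replicate block, DESeq2 1.42.0 and its size factors, limma-voom, scaling by total counts, other filters on low counts, and each culture left out.

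The genes, lists and tests were chosen with earlier results of these data known. Named genes were the 10 members, pathway genes passing with or without the block, rows near S1PR5 or overlapping a member, the 5 genes most correlated with S1PR5, and 3 TGFβ targets. The pathway genes SPTLC1, SPTLC2 and APOM and single genes of the marker lists were named after their values were seen. Coordinates are those of the table (hg19), and GENCODE v44 on GRCh37 served to place rows in genes.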

Additional observations from a re-analysis of the deposited data

How the results depend on the processing

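Of 92 recomputed fold changes of the 7 tested members other than S1PR5, 81 kept their direction and their side of the threshold. The sign changed in 2, both of SPNS2, at 0.12 without vehicle culture 1 and 0.07 without TGFβ culture 3, in a range of -0.47 to 0.12 over the cultures left out. With total-count scaling, which moved the median log2 fold change of all genes to -0.047, 1 member other than S1PR5 was called higher in place of 2, as SPHK1 missed the threshold. With the replicate block 10 pathway genes in place of 4 were higher, and 1837 genes in place of 707 were higher and 853 in place of 230 lower over the whole table. Leaving out each culture gave 0 to 2 members higher, 1 to 5 pathway genes higher and 0 to 1 lower, and a log2 fold change of S1PR5 between 4.18 and 6.06. Over these 6 fits between 485 and 998 genes were called in all, against 937. The number of members called lower was 0 in all of these fits. DESeq2 and limma-voom called the same number of members, 2 higher and 0 lower. With at least 10 counts in every library S1PR5 could not be fitted. TMM-scaled levels per length were 1.18 to 1.26 times the deposited RPKM. S1PR1 and S1PR4 were limited by depth, and without the filter their log2 fold changes were -3.56 (SE 2.01, edgeR FDR 0.651) and -0.79 (SE 1.03, edgeR FDR 0.849).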

Other observations

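Some genes of the marker lists differed between the groups when the cultures were paired by number. PDGFRB, the β receptor for platelet-derived growth factor, had 6.77 ± 2.19 CPM with vehicle and 15.8 ± 7.1 CPM with TGFβ (SD, n = 3 each), with an edgeR FDR of 0.0582 without the block and 7.25e-06 with it. COL1A1, a chain of type I collagen, had 7.54 ± 2.27 and 11.2 ± 0.964 CPM (SD, n = 3 each), with an edgeR FDR of 0.193 without the block and 0.00806 with it. MAG, a myelin glycoprotein, had 0.571 ± 0.113 and 1.11 ± 0.175 CPM (SD, n = 3 each), with an edgeR FDR of 0.0557 without the block and 0.0128 with it. FGB and TTR, plasma proteins of hepatocytes, fell with the block, by 0.22 and 0.25 on the log2 scale (edgeR FDR 0.0331 and 0.0495). Per culture PDGFRB stood at 5.01, 9.22 and 6.09 CPM with vehicle and 11, 24 and 12.5 CPM with TGFβ, with culture 2 highest in both groups.

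UCN2, which encodes the peptide urocortin 2, was among the genes closest to S1PR5. The vehicle cultures gave 16, 23 and 11 reads and the TGFβ cultures 44, 41 and 50, with a log2 fold change of 1.35 (SE 0.31). UCN2 was picked by its correlation with S1PR5 over these cultures. Its rise follows from that choice, so its values are given as a description without a test.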
